A study of Caenorhabditis elegans with 12 samples.

Results

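Oligo-dT and random-hexamer priming of the same kind of RNA were compared in wild-type N2 hermaphrodites of Caenorhabditis elegans, gene by gene. A gene entered the comparison when the authors' tables gave it the status OK with both primers and a value above 0 in N2 with both, and 8643 of 39665 genes did. Its measure was the log2 ratio of the oligo-dT value to the hexamer value, from which the median over all 8643 genes was subtracted, so that 0 marks the ratio of the median gene. The values are FPKM, fragments scaled to the length of the gene model and to the depth of the library, and each is 1 estimate of the authors over 3 libraries, so that no spread between libraries could be computed and no test was made. All fold differences below describe these pooled values, and "lower" or "higher" refers to the oligo-dT value relative to the hexamer value after centring.

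The N2 animals were whole adult XX hermaphrodites with a wild-type genome, grown at 20 °C on OP50 bacteria. Their RNA was extracted with Trizol and made into 3 oligo-dT-primed and 3 hexamer-primed libraries with the TotalScript kit. A further 3 libraries per primer came from adult XX females of strain JK574, homozygous for fog-2(q71), raised in the same way, whose hermaphrodite germline makes no sperm, and these served as a second measurement of the same ratio in other animals. In the labels, 1 of the 3 N2 hexamer libraries carries a description as oligo-dT primed, and 1 N2 library per primer carries the strain name N3; the titles were followed, and no value without these libraries could be made.

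Most eukaryotic mRNAs are cleaved at the 3′ end and given a poly(A) tail, to which oligo-dT anneals. Random hexamers anneal anywhere along an RNA and need no tail. Replication-dependent histone mRNAs end instead in a conserved stem-loop, and ribosomal RNAs, spliceosomal small nuclear RNAs, small nucleolar RNAs and the RNA of RNase MRP are processed without a lasting tail. Tail length is itself regulated in the C. elegans germline, by cytoplasmic poly(A) polymerases and deadenylases.

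The median gene stood at 33.5 FPKM with oligo-dT and at 26.3 FPKM with hexamers, and the median ratio before centring was 1.50-fold (0.59 on the log2 scale). The centred ratios were skewed: the 5th percentile lay at -2.63 and the 95th at 0.84, and the 1st and 99th percentiles at -4.95 and 1.21. At least 4-fold lower were 592 genes, which is 6.85% of all compared. At least 4-fold higher were 4 genes, which is 0.0463%. With a limit of 2-fold, chosen after the values were seen, 1313 genes (15.2%) were lower and 196 (2.27%) higher. These counts depend on the status rule, most of all on the high side. With any status allowed, 1121 of 16571 genes were at least 4-fold lower, 234 at least 4-fold higher and 1517 at least 2-fold higher.

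**Figure D1:**
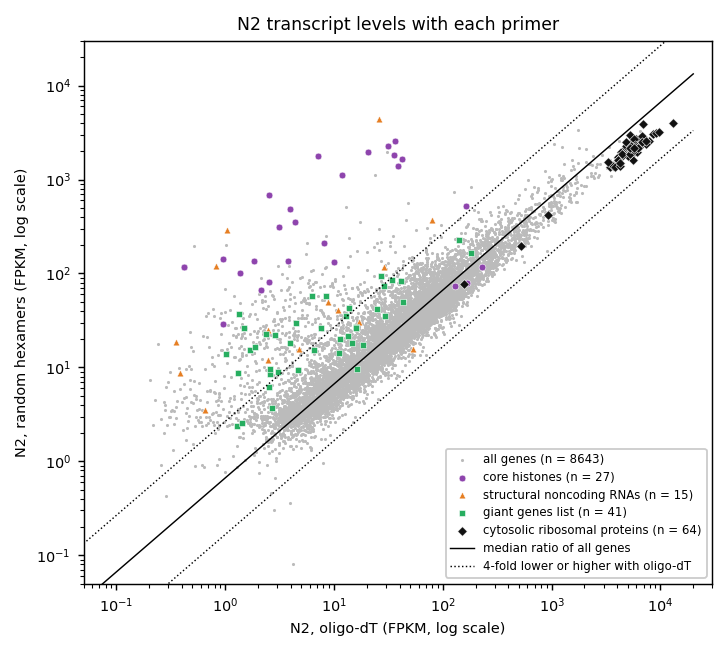
N2 level of each of 8643 genes with oligo-dT (x axis, FPKM, log scale) and with random hexamers (y axis, FPKM, log scale), 1 point per gene; the solid line marks the median ratio and the dotted lines a 4-fold lower or higher oligo-dT value. Most core histones and structural noncoding RNAs lie above the upper dotted line, up to 4431 FPKM with hexamers, and cytosolic ribosomal proteins lie below the solid line.

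The rule leaves out genes that were read with 1 primer only. Of 8675 genes with the status OK in both tables, 32 were listed at 0 in N2: 23 with hexamers only, 7 with oligo-dT only and 2 with both. The 1 named gene among those listed at 0 with 1 primer was abf-1, an antibacterial peptide gene, at 1.88 FPKM with oligo-dT and listed at 0 with hexamers. Just inside the rule, the lowest values were 0.206 FPKM with oligo-dT and 0.0815 FPKM with hexamers, which belonged to srx-125. A further 7721 genes had the status OK with oligo-dT and were not tested with hexamers, at medians of 0.712 FPKM with oligo-dT and 0.336 FPKM with hexamers. Another 1090 genes had a value with hexamers (median 29.8 FPKM) but the status HIDATA with oligo-dT, a flag for loci with too many fragments under which the value is a placeholder of 0. Of these, 1087 lay in loci that the tables share among several gene models, and 4 of the 5 vitellogenin genes had the HIDATA status.

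Among the gene lists with at least 5 genes compared, the core histones stood furthest from the median gene. Of 55 core histone genes in the tables, 27 could be compared, their median centred log2 ratio was -6.76, and 24 of 27 were at least 4-fold lower with oligo-dT, against 6.85% of all genes. Those 24 ranged between 0.416 and 162 FPKM with oligo-dT (median 4.16) and between 28.8 and 2593 FPKM with hexamers (median 334). Their values added up to 433 FPKM with oligo-dT and 18235 FPKM with hexamers. Of the 28 core histone genes left out, 21 were tested with neither primer, 2 had too few data with both, 4 were tested with hexamers only and 1 with oligo-dT only, and the highest value among them was 0.346 FPKM with oligo-dT and 84.1 FPKM with hexamers.

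All nucleosome subunits took part. The types are separated here by protein length, which is 103 residues for H4, 123 for H2B, 127 for H2A and 136 for H3, and the counts cover the 23 genes that are matched in the reference annotation and have no annotated 3′ UTR. The 8 H4 genes had a median of -6.33, the 5 H2B genes one of -7.15, the 4 H2A genes one of -6.01 and the 6 H3 genes one of -6.86. The H2B gene his-62 (chromosome IV, 7486534 to 7486905 as in the files, for which no source used here names the genome build) had the highest hexamer value, at 36.1 FPKM with oligo-dT and 2593 FPKM with hexamers, 108-fold lower. The H3 gene his-59 on the same chromosome had 31.6 FPKM with oligo-dT and 2299 FPKM with hexamers (-6.77). The H4 gene his-64 had 7.07 FPKM with oligo-dT and 1800 FPKM with hexamers, which is 382-fold lower. The lowest ratios of the group were those of his-66, at 0.416 FPKM with oligo-dT and 118 FPKM with hexamers (-8.74), and of the H2B gene his-58, at 0.416 and 118 FPKM (-8.73). Core histone copies are nearly identical in sequence, so the split of reads between copies is uncertain, while the sum over them is less affected.

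A few members of the family behaved otherwise. The H2A gene his-68 had 162 FPKM with oligo-dT and 516 FPKM with hexamers (-2.26), and the next lowest difference among the 24 was the -4.31 of his-32. The core histone genes his-35, his-37 and his-41, which lie close together on chromosome V, were not lower: his-35 had 166 FPKM with oligo-dT and 79.1 FPKM with hexamers (0.48), his-37 had 228 and 117 FPKM (0.37), and his-41 had 129 and 74.1 FPKM (0.21). Among the core histone genes compared, these 3 are also the ones for which the reference annotation (Ensembl release 115) lists a 3′ UTR, of 88 to 109 nt.

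The replacement and linker histones, which are made outside S phase or bind linker DNA, were near the median gene. None of the 12 that could be compared was 2-fold lower or higher, their median was 0.07 and their range -0.35 to 0.47. The H3.3 gene his-72 had 641 FPKM with oligo-dT and 346 FPKM with hexamers (0.30). The H3 variant gene his-74 had 434 FPKM with oligo-dT and 367 FPKM with hexamers, the lowest ratio of the list. The linker histone genes hil-4 and hil-5 had 551 and 511 FPKM with oligo-dT, and 285 and 246 FPKM with hexamers. The genes for the processing of histone mRNA ends were mixed: the stem-loop-binding protein gene cdl-1 was at 260.5 FPKM with oligo-dT and 264 FPKM with hexamers (-0.61), the list median of 6 genes was -0.47, and the exonuclease gene xrn-2 was lower, at 4.61 FPKM with oligo-dT and 19.7 FPKM with hexamers (-2.69).

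**Figure D2:**
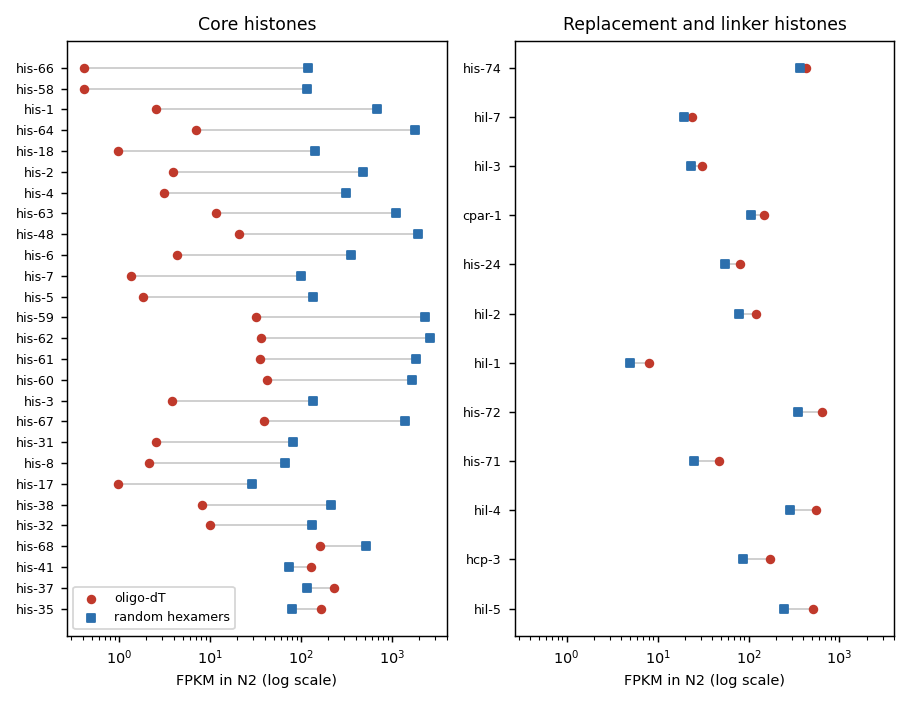
N2 level of each compared core histone gene (left) and replacement or linker histone gene (right) with oligo-dT (red circles) and random hexamers (blue squares), in FPKM on a log scale, 1 pooled value per point and genes ordered by their ratio. In 24 core histone genes the hexamer point lies to the right, and in his-41, his-37, his-35 and all 12 replacement and linker histones it lies to the left.

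Structural noncoding RNAs were low with oligo-dT as well, but few could be compared. Of 194 such genes listed, 15 were compared, with a median of -3.01. At least 4-fold lower were 13 of the 15 (86.7%, against 6.85% of all genes). The 5.8S ribosomal RNA gene rrn-2.1 had 25.9 FPKM with oligo-dT and 4431 FPKM with hexamers, the largest hexamer value of the class, a 258-fold difference. The RNase MRP RNA gene mrpr-1 had 1.03 FPKM with oligo-dT and 294 FPKM with hexamers (-8.74). All 6 small nuclear RNA genes compared were at least 4-fold lower, among them the U1 genes sup-6, at 79.7 FPKM with oligo-dT and 368 FPKM with hexamers, and sup-39, at 10.8 and 40.5 FPKM. Of 7 small nucleolar RNA genes 5 were 4-fold lower (71.4%). The 1 above the median gene was W08G11.6, at 52.8 FPKM with oligo-dT and 15.7 FPKM with hexamers (1.16). In all, 12 of the 15 genes lay in loci shared with other gene models, W08G11.6 in a locus of 276, and for these the reads of a host gene and of the small RNA inside it are hard to tell apart. No transfer RNA, microRNA precursor, piRNA or spliced-leader gene met the rule.

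The genes annotated only as ncRNA, mrpr-1 among them, divided into low and ordinary ones. Of 77 members 39 were at least 4-fold lower (50.6%, against 6.85% of all genes), and the median was -2.01. Of the 77, 57 lay in loci shared with other gene models, and the 20 with a locus of their own had a median of -0.54. The lowest ratio of all 8643 genes was in this class: ZC155.8 (chromosome III, 5211181 to 5211479), of 299 nt, had 0.522 FPKM with oligo-dT and 198 FPKM with hexamers, 570-fold lower. T27A10.8, of 188 nt on the X chromosome, had 30.8 FPKM with oligo-dT and 1947 FPKM with hexamers. Among the 31 genes of this class with a mean of at least 10 FPKM, 8 were 4-fold lower, 19 lay within 2-fold of the median gene, and the median was -0.65. The long noncoding RNA gene tts-1 was on the other side, at 741 FPKM with oligo-dT and 236 FPKM with hexamers (1.06), in a locus of 23 models. Of 48 pseudogenes 1 was 4-fold lower (2.08%), with a median of -0.08.

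Of the 592 genes at least 4-fold lower, only 24 were core histones and 54 others belonged to RNA classes that encode no protein. A further 54 were not matched in the annotation. The other 460 were ordinary protein-coding genes, and they shared long transcripts, a property that was looked at after the values were seen. Among them 352 (76.5%) had an annotated 3′ UTR of at least 400 nt, against 17.9% of all 8239 protein-coding genes compared outside the core histones. Their median 3′ UTR was 689.5 nt and that of all was 171 nt, and their median protein had 630 residues, against 385 in all. Of the 460, 378 (82.2%) had a 3′ UTR of at least 400 nt or a protein of at least 2000 residues, and 33 of the 82 with neither lay in shared loci. Read the other way, 352 of 1476 genes with a 3′ UTR of at least 400 nt were 4-fold lower (23.8%), against 108 of 6763 genes with a shorter one (1.60%), and 159 of those 1476 (10.8%) lay above the median gene.

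Across bins the ratio moved with both lengths. Genes with an annotated 3′ UTR of 1 to 49 nt had a median of 0.37, those of 100 to 199 nt one of 0.17, those of 400 to 799 nt one of -0.89 and those of 800 nt or more one of -1.60, with 42.9% of the last 431 genes 4-fold lower. Genes for proteins under 100 residues had a median of 0.50, those of 400 to 799 residues one of -0.17, and the 126 genes for proteins of 2000 residues or more one of -1.81. The differences between the outermost bins were -1.97 for the 3′ UTR, counted from 1 nt upward, and -2.31 for protein length. The 2 lengths are themselves related (Spearman's rho 0.34 across 8265 protein-coding genes, which share libraries and are not independent), and each trend was also seen with the other held within 1 bin. Within proteins of 200 to 399 residues, the medians were 0.41 for a 3′ UTR of 1 to 49 nt (181 genes) and -0.95 for 800 nt or more (95 genes). Within a 3′ UTR of 100 to 199 nt, the medians were 0.51 for proteins under 100 residues (104 genes) and -1.57 for 2000 residues or more (22 genes). Across the same 8265 genes, Spearman's rho of the centred ratio was -0.57 with the 3′ UTR, -0.62 with protein length and -0.70 with mRNA length.

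**Figure D3:**
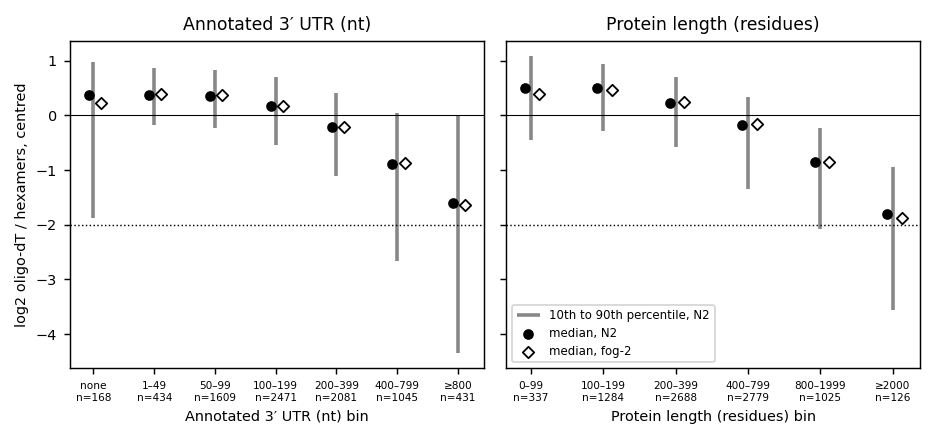
Centred log2 ratio of oligo-dT to hexamers of protein-coding genes other than core histones, in bins of annotated 3′ UTR length (left, nt) and of protein length (right, residues); circles are N2 medians, diamonds fog-2 medians, bars span the 10th to the 90th percentile of N2 genes and the dotted line marks 4-fold lower. The N2 medians are lowest in the last bins, at -1.60 for 3′ UTRs of 800 nt or more and -1.81 for proteins of 2000 residues or more.

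The gene models behind the values bear on these lengths. In the tables, 12492 protein-coding genes do not share their locus, and 87.4% of them have a model whose span equals the span of the coding sequence in the reference, and of 10721 such genes with an annotated 3′ UTR, 9457 had the coding span and 6 the full span. Most models thus leave the annotated 3′ UTR out. For the poly(A) polymerase gene gld-4 (chromosome I, 9118108 to 9121754), for example, the model spans 3647 nt and the annotated gene 5067 nt, with a 3′ UTR of 1420 nt. Among the 5576 members with a locus of their own and a coding-span model, the medians were 0.38 for 3′ UTRs of 1 to 49 nt and -1.44 for 800 nt or more. How much of any single gene's ratio goes with its tail, its 3′ UTR or its length was not tested.

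The lowest ordinary mRNAs were read at only a few FPKM with oligo-dT. The part of the naming rule that takes the lowest ratios over all genes gave only histones and noncoding RNAs, so the 12 lowest named protein-coding genes with a locus of their own and a mean of at least 10 FPKM were added after the values were seen. The mitochondrial ribosomal protein gene mrpl-45 had 0.480 FPKM with oligo-dT and 23.99 FPKM with hexamers (-6.23). The G protein alpha subunit gene gpa-16 had 3.06 FPKM with oligo-dT and 119 FPKM with hexamers (-5.86). The insulin receptor gene daf-2 had 1.36 FPKM with oligo-dT and 48.1 FPKM with hexamers (-5.73). The WAVE complex gene wve-1 (-5.97), the fatty acid elongase gene elo-3 (-5.48) and the CTP synthase gene ctps-1 (-5.33) were in the same range. All 12 were under 10 FPKM with oligo-dT and met the limit on the mean through their hexamer value.

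The machinery of tail length was itself unevenly read. Of 26 genes of the poly(A) machinery, 5 were at least 4-fold lower (19.2%, against 6.85% of all genes), the median was -0.75 and the median 3′ UTR 620 nt. The deadenylase gene ccr-4 had 5.68 FPKM with oligo-dT and 214 FPKM with hexamers (-5.82). The cytoplasmic poly(A) polymerase gene gld-4 had 8.42 FPKM with oligo-dT and 252 FPKM with hexamers (-5.49). The CCR4-NOT scaffold gene let-711 (-5.45) and the subunit genes ntl-4 (-3.30) and ntl-9 (-2.91) were lower too. The second cytoplasmic poly(A) polymerase gene, gld-2, was at 53.0 FPKM with oligo-dT and 140 FPKM with hexamers (-1.99), just short of 4-fold. Some cleavage and polyadenylation factors with short 3′ UTRs were above the median gene, such as cpf-1 at 106 FPKM with oligo-dT and 51.2 FPKM with hexamers (0.46) and cpsf-4 at 170 and 82.9 FPKM (0.45). Also above it were cpsf-2 (3′ UTR of 64 nt, 0.42), cfim-1 (151 nt, 0.33) and cpsf-3 (261 nt, 0.02). Below it were suf-1 (199 nt, -0.41), symk-1 (214 nt, -0.60) and fipp-1 (220 nt, -0.14). The genes pfs-2, pap-1 and cfim-2, with annotated 3′ UTRs of 2266, 1404 and 1270 nt, were at -0.76, -0.75 and -0.50. The poly(A)-binding protein gene pab-1 was at 953 FPKM with oligo-dT and 1052 FPKM with hexamers (-0.73).

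Genes of the germline and oocyte were mostly somewhat below the median gene. Of 35 maternal and oocyte genes 29 were below 0, with a median of -0.60. At least 4-fold lower was 1 gene (2.86%, against 6.85% of all genes). The 21 compared mRNAs that are known to bind the translational repressor GLD-1 had a median of -0.59, with 17 of 21 below 0 and 1 at least 4-fold lower (4.76%, against 6.85% of all genes). That gene was lin-41, a regulator of oocyte growth, at 13.7 FPKM with oligo-dT and 240 FPKM with hexamers (-4.72). Most of the 21 GLD-1 targets, lin-41 among them, are also in the maternal and oocyte list, so these lists are not independent. The other GLD-1 targets lay between -1.76 (lin-45) and 0.81 (syp-2). Abundant maternal mRNAs lay on both sides of the list median: the zinc-finger gene pos-1 had 1507 FPKM with oligo-dT and 1260 FPKM with hexamers (-0.33), and the zinc-finger gene mex-5 had 607 and 998 FPKM (-1.30). In all, 7 of the 35 were at least 2-fold lower, against 15.2% of all genes. All 14 P granule genes were below 0 with a median of -0.71, led by the Argonaute gene csr-1 at 76.7 FPKM with oligo-dT and 240 FPKM with hexamers (-2.23), and by the helicase gene cgh-1 at 1734 and 3390 FPKM (-1.56). Among 25 meiosis genes 1 was 4-fold lower (4%, against 6.85% of all genes), the checkpoint kinase gene chk-2 at 1.41 FPKM with oligo-dT and 27.1 FPKM with hexamers. The median protein-coding gene had a 3′ UTR of 170 nt, against 366 nt in the GLD-1 targets and 244 nt in the P granule genes. The median protein had 385 residues over all protein-coding genes compared, 485 in the GLD-1 targets and 795 in the P granule genes.

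Genes for very long proteins were low as a group. A list drawn up for large muscle, matrix and cytoskeletal genes had 41 members, with a median of -1.90 and 19 genes at least 4-fold lower (46.3%, against 6.85% of all genes). It also holds 13 genes for proteins under 2000 residues, among them ordinary-sized ones such as the Frizzled receptor gene mom-5, of 570 residues (-3.79). The 28 members of 2000 residues or more had a median of -2.08, with 15 of them 4-fold lower. All 126 compared genes for proteins of that length had a median of -1.81, with 37.3% of them 4-fold lower. The list was drawn up with earlier results of these data known. Of its 41 members, 23 lay in loci shared with other gene models, and the 18 with a locus of their own had a median of -1.60. The beta-spectrin gene unc-70 had 1.33 FPKM with oligo-dT and 36.6 FPKM with hexamers (-5.37). The twitchin gene unc-22 had 1.485 FPKM with oligo-dT and 26.4 FPKM with hexamers (-4.74), and the titin-like gene ttn-1 had 2.57 and 9.56 FPKM (-2.49). The hemicentin gene him-4, of 5198 residues, was the only member above 0, at 16.4 FPKM with oligo-dT and 9.66 FPKM with hexamers (0.17). The genes unc-70, unc-22, ttn-1 and him-4 lie in loci of 3, 20, 8 and 6 models. The body-wall muscle myosin gene unc-54 was lower as well, at 57.1 FPKM with oligo-dT and 293 FPKM with hexamers (-2.95), while the 22 genes of thin and thick filaments had a median of -0.31. The yolk protein gene vit-1, expressed in the adult intestine, had 1047 FPKM with oligo-dT and 2404 FPKM with hexamers (-1.79).

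Members of 1 complex or pathway could differ widely. Of 24 translation factor genes 5 were at least 2-fold lower, against 15.2% of all genes, and 1 was at least 4-fold lower, against 6.85%. That gene was ifg-1, for eIF4G, at 26.1 FPKM with oligo-dT and 178 FPKM with hexamers, with a 3′ UTR of 1154 nt, while eef-2 was at the median gene's ratio (0.00). The chaperonin subunit gene cct-3 had 8.34 FPKM with oligo-dT and 113 FPKM with hexamers (-4.35), whereas cct-1 and cct-5 were at -0.32 and -0.17. The annotated 3′ UTR is 961 nt in cct-3, 215 nt in cct-1 and 272 nt in cct-5. Of 62 mitochondrial ribosomal protein genes 56 were above 0. Those at least 4-fold lower were mrpl-45, mrps-31 and mrpl-46 (4.84%, against 6.85% of all genes). Their 3′ UTRs are of 1057, 1006 and 479 nt, against a list median of 112 nt, and mrps-31 lies in a locus of 97 models. The gene mrps-26, with a 3′ UTR of 670 nt, went the other way, at 0.29.

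On the high side, short mRNAs prevailed among the genes compared, at differences that seldom passed 2-fold. The cytosolic ribosomal proteins had a median of 0.75, and all 64 compared were above 0, between 0.23 for rps-8 and 1.19 for rpl-22. The gene rpl-22 had 5558 FPKM with oligo-dT and 1623 FPKM with hexamers, 2.28-fold higher after centring, and rps-25 had 12973 and 4022 FPKM (1.10). Their median protein had 151.5 residues and their median 3′ UTR 55 nt. Of the 64, 5 were at least 2-fold higher (7.81%, against 2.27% of all genes). Mitochondrial ribosomal proteins had a median of 0.64, with 11 of 62 at least 2-fold higher (17.7%). Transthyretin-related secreted proteins had a median of 0.66 over 37 genes. For LSM and Sm splicing proteins it was 0.69 over 13, and for antimicrobial peptides with lysozymes 0.61 over 35. Neuropeptide genes had a median of 0.36 over 56 genes, from flp-10 (-1.01) to nlp-47 (1.31).

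The 196 genes at least 2-fold higher held 189 protein-coding genes, with a median of 141 residues and a median 3′ UTR of 90 nt. Of these, 146 (77.2%) encoded fewer than 200 residues, against 19.9% of all protein-coding genes. Among genes with a mean of at least 10 FPKM and a locus of their own, the named genes with the highest ratios were fipr-13, at 41.9 FPKM with oligo-dT and 9.23 FPKM with hexamers (1.59), spp-16, a saposin-like gene, at 64.5 and 14.8 FPKM (1.54), and rnh-1.0, a ribonuclease H gene, at 18.5 and 4.38 FPKM (1.49). The genes fipr-13 and rnh-1.0 were under 10 FPKM with hexamers and met the limit on the mean through their oligo-dT value. In fog-2 the ratio of fipr-13 was 0.75. None of the 10 named by this rule reached 4-fold. The 4 genes that did, named here after their values were seen, were srx-125, sdz-7, CELE_C25D7.15 and Y57E12AR.1, all under 1 FPKM with hexamers. srx-125, a chemoreceptor-family gene, had 4.22 FPKM with oligo-dT and 0.0815 FPKM with hexamers (5.11), and sdz-7 had 3.96 and 0.359 FPKM in a locus of 526 models.

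Lists of other functions lay close to the median gene. The medians were 0.29 for nuclear genes of the respiratory chain (27 genes), 0.28 for F-box genes (60), 0.27 for C-type lectins (39), 0.21 for translation factors (24), 0.16 for tubulins (9), 0.14 for detoxification enzymes (78), 0.10 for the proteasome (29), 0.08 for cuticle collagens (35), 0.03 for splicing factors (17), 0.02 for actins (3), -0.02 for nuclear hormone receptors (88), -0.16 for chaperones (48) and -0.19 for cell cycle genes (24). Within them, the chaperones held 4 genes at least 4-fold lower (8.33%) and the nuclear hormone receptors 4 (4.55%, the lowest being nhr-119 at -4.18), against 6.85% of all genes. The translation factors, the lectins (clec-41, -2.53), the splicing factors (sfa-1, -3.33) and the cell cycle genes (cdk-2, -3.79) held 1 each, and the other 7 of these lists held none. The major sperm proteins were represented by 5 genes of 30, at a median of 0.52 and at most 13.01 FPKM with oligo-dT.

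**Figure D4:**
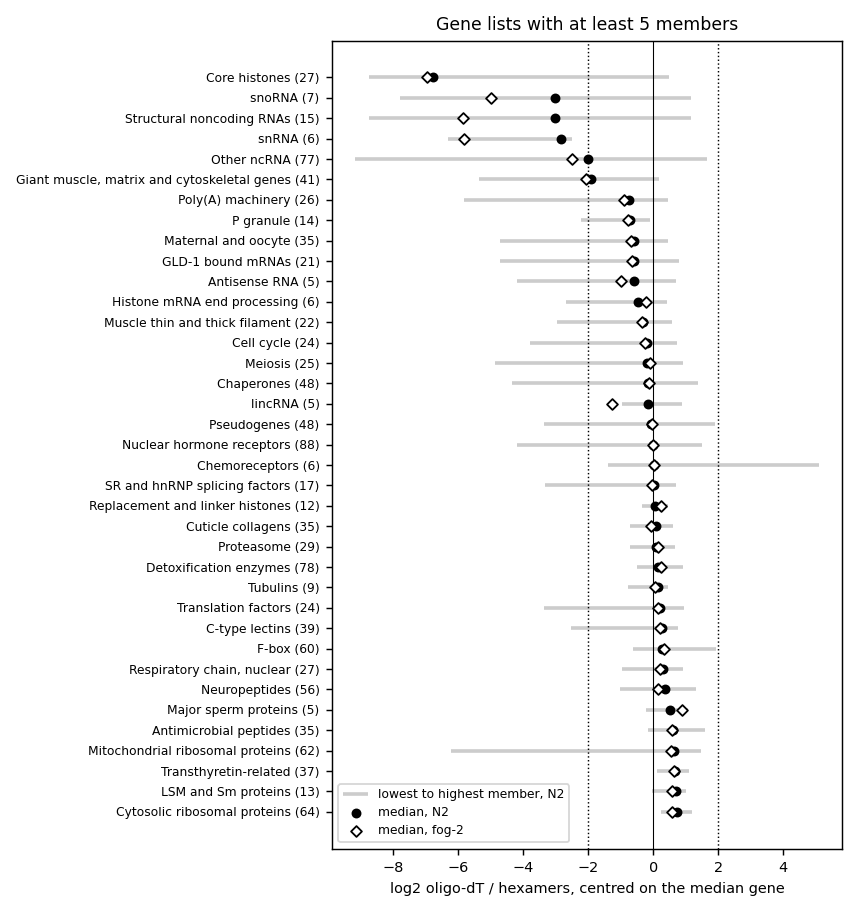
Median centred log2 ratio of oligo-dT to hexamers for each gene list with at least 5 compared members (number in brackets), in N2 (filled circles) and fog-2 (diamonds); grey bars run from the lowest to the highest N2 member and dotted lines mark 4-fold. Core histones have the lowest median, -6.76, and cytosolic ribosomal proteins the highest, 0.75.

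The ratio was measured a second time in the fog-2 libraries, which are other animals and another genotype. Over 8593 genes with both ratios, Pearson's r was 0.94 and Spearman's rho 0.88, given as a description across genes that share libraries. The absolute difference between N2 and fog-2 ratios had a median of 0.15, and 88.8% of genes were within 0.5. It was 0.26 for 2116 genes with a mean under 10 FPKM in N2 and 0.13 for the 6477 others. Of 561 genes at least 4-fold lower in N2 that had a fog-2 ratio, 549 (97.9%) were so in fog-2, where 7.45% of all genes were, and of the 623 such genes in fog-2 with an N2 ratio these were 88.1%. The high side carried over less: of 195 genes at least 2-fold higher in N2, 52 (26.7%) were so in fog-2, against 2.95% of all genes there, and 171 kept the sign. Of the 4 genes 4-fold higher in N2 none was 4-fold higher in fog-2, where 20 other genes (0.232%) were, and 1 kept the sign.

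The core histones gave nearly the same result in both genotypes, with 24 genes 4-fold lower in each and a median of -6.76 in N2 and -6.97 in fog-2. The structural noncoding RNAs did not: their median was -3.01 in N2 and -5.86 in fog-2, over the 10 of 15 with a fog-2 ratio in the second case. With hexamers, rrn-2.1 had 4431 FPKM in N2 and 25019 FPKM in fog-2, and mrpr-1 had 294 FPKM in N2 and 990 FPKM in fog-2. With oligo-dT, rrn-2.1 had 25.9 FPKM in N2 and 22.9 FPKM in fog-2. In 14 of the 15 genes the hexamer value was lower in N2, the other one being listed at 0 in fog-2, and the fog-2 value was 2.95 to 8.83 times the N2 value in the 14, with a median of 5.05. Over the 24 low core histone genes, by contrast, the hexamer values added up to 18235 FPKM in N2 and 24235 FPKM in fog-2.

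**Figure D5:**
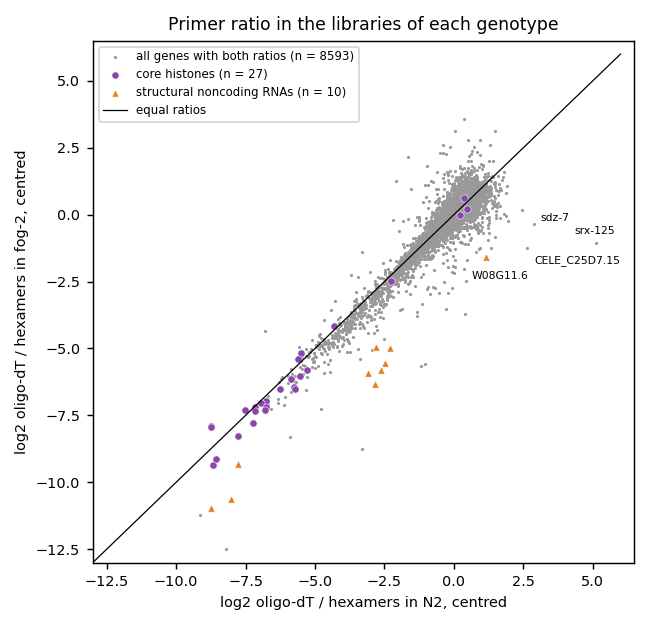
Centred log2 ratio of oligo-dT to hexamers in N2 (x axis) and in fog-2 (y axis) for 8593 genes, 1 point per gene, with the line of equal ratios. Most points follow the line, structural noncoding RNAs lie below it, and srx-125, sdz-7, CELE_C25D7.15 and W08G11.6 are above 0 in N2 and below 0 in fog-2.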

How the data were processed

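Per the labels' protocols, Trizol extracts of total RNA from whole adults were turned into TotalScript libraries, primed with oligo-dT or with random hexamers. Samples were grouped by their titles, since other label fields disagree for a few of them. TopHat, Cufflinks 2.1.1 and Cuffdiff are the tools listed in the submitters' processing notes. No source used here states the build or annotation, so coordinates are those of the files, counted from 1.

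For each primer the authors deposited a gene table of Cuffdiff, which per the file headers holds 1 FPKM value for each genotype. Each FPKM value is pooled over 3 libraries, and depth per library is unknown. No interval or test is therefore given. Among 7 H4 gene models of equal length, 0 of 6 values were whole multiples of the lowest within 0.01. Values pooled over libraries and split between nearly identical copies need not be whole multiples, so this says nothing about depth.

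Here the tables were joined on gene name with pandas 2.3.3 (Python 3.11.15), the log2 ratio of oligo-dT to hexamers was centred on its median (0.59), and no pseudocount was added. The Ensembl 115 annotation of WBcel235 gave RNA class, protein length and the longest annotated 3′ UTR by gene name, for 8414 of 8643 genes (97.4%). Loci shared by several models held 26.0% of genes.

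The members and the 45 gene lists were chosen with earlier results of these data known. Genes were named by a rule: the 10 highest and 10 lowest named genes with a mean of at least 10 FPKM and a locus of their own, the 3 highest and 3 lowest of all, up to 4 most abundant members per list with its extremes, and genes listed at 0 with 1 primer. The 12 low protein-coding genes, further list members given for comparison, the 2-fold limit and the 3′ UTR were added after the values were seen. The fog-2 libraries, another pseudocount, filter, status, locus and centring were tried as alternatives. The ratio, the centring and the fold calls were checked on copies of the real levels with known ratios put in, which checks the arithmetic only. No sequence is shown.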

Additional observations from a re-analysis of the deposited data

Results flagged for a closer look

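In 3 named genes the oligo-dT value lay at least 2-fold above the hexamer value in N2 and at least 2-fold below it in fog-2, relative to the median gene. The difference between genotypes was not tested, because each table holds 1 pooled value per genotype. The chemoreceptor-family gene srx-125 had a centred log2 ratio of 5.11 in N2 and -1.08 in fog-2, with 0.0815 FPKM in N2 and 8.28 FPKM in fog-2 with hexamers, and 4.22 FPKM in N2 and 5.76 FPKM in fog-2 with oligo-dT. CELE_C25D7.15, a protein-coding gene of 121 residues, had 2.62 in N2 and -1.26 in fog-2, with 0.304 FPKM in N2 and 3.68 FPKM in fog-2 with hexamers. The small nucleolar RNA gene W08G11.6, in a locus of 276 gene models, had 1.16 in N2 and -1.58 in fog-2, with 15.7 FPKM in N2 and 81.2 FPKM in fog-2 with hexamers.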

How the results depend on the processing

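Each table holds 1 value per genotype over its libraries, so no library could be left out, and depth sets a limit that cannot be stated. No paired analysis was possible because the letters shared by oligo-dT and hexamer libraries have no values of their own in the tables. The counts of genes at least 4-fold lower (592), at least 4-fold higher (4) and at least 2-fold higher (196) with oligo-dT moved most. With any status allowed (16571 genes) they were 1121, 234 and 1517. In loci of 1 gene model (6399 genes) they were 341, 2 and 122. With a mean of at least 10 FPKM (6483 genes) they were 393, 0 and 117, with no centring 44 genes were 4-fold and 2010 were 2-fold higher, and with centring on named protein-coding genes 326 were 2-fold higher. With 1 FPKM added 0 genes were 4-fold higher, and in the fog-2 libraries 20.

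The medians of the lists below kept their sign under every alternative run. That of core histones was -6.12 with 1 FPKM added, -6.56 in loci of 1 model, -6.17 uncentred and -6.97 in fog-2. That of cytosolic ribosomal proteins was 1.33 uncentred and 0.58 in fog-2, and that of the giant genes was -1.64 in loci of 1 model, -1.32 uncentred and -2.07 in fog-2. That of structural noncoding RNAs was -2.84 with 0.1 FPKM added, -2.74 with 1 FPKM added, -2.84 at a mean of at least 10 FPKM, -8.05 in loci of 1 model (3 genes), -2.43 uncentred and -5.91 in fog-2 over the genes that met the rule there. The difference between the longest and the shortest protein bin was -2.13 with 1 FPKM added and -2.05 with any status, and that between 3′ UTR bins was -1.75 with any status and -1.81 in loci of 1 model. Of 232 named genes, 8 that lay at least 2-fold from the median gene in N2 had the other sign in fog-2 and none under the other alternatives run: C14B9.11 (-0.14), CELE_C25D7.15 (-1.26), CELE_M116.2 (-0.033), W08G11.6 (-1.58), fbxb-31 (-0.24), nhr-53 (-0.018), sdz-7 (-0.36) and srx-125 (-1.08). The cause of these shifts was not tested.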

Other observations

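Protein-coding genes of the X chromosome had the lowest median ratio of the 6 chromosomes, at -0.18 over 1218 genes in N2 and -0.17 in fog-2, while the autosomes lay between -0.03 (chromosome I) and 0.10 (chromosome V) in N2. Their median annotated 3′ UTR was also the longest, at 240 nt on the X chromosome, against 141 to 174 nt on the autosomes. Among genes with a 3′ UTR of 100 to 199 nt and a protein of 200 to 399 residues, the median was 0.24 on the X chromosome (100 genes), and between 0.27 and 0.38 on the autosomes. The share of genes at least 4-fold lower was 4.02% on the X chromosome, against 3.48% to 7.82% on the autosomes. These values are given as a description, with no test, since each gene has 1 pooled value per primer.

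Of 17 lincRNA genes 5 were compared, and their median was -0.16 in N2 and -1.27 in fog-2. F13H8.15 was at 392.3 FPKM with oligo-dT and 140 FPKM with hexamers in N2 (0.90), and at 397 FPKM with oligo-dT and 665 FPKM with hexamers in fog-2 (-1.30). H36L18.2 was at 221 FPKM with oligo-dT and 87.6 FPKM with hexamers in N2 (0.75).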
